A study of Mus musculus with 43 samples.

Results

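The 10 genes described here encode non-collagen proteins of the extracellular matrix or act on them, and were chosen by name as matrix genes of fat fibrosis. They are Fbn1, Fn1, Postn, Tnc, Sparc, Thbs1, Lox, Loxl2, Eln and Tgfb1, 10 of the 56748 genes in the deposited tables. All 10 passed the filter on low counts, which left 20218 genes to test. RNA was sequenced from the epididymal white adipose tissue of male mice, a visceral fat depot. There were 10 libraries of mice on a high-fat diet of 60% fat, 20% protein and 20% carbohydrate (HFD). SZ-A, an alkaloid extract of mulberry twigs (Ramulus Mori, or Sangzhi), was given on the same diet in 9 libraries at 200 mg/kg/day, in 8 at 400 mg/kg/day and in 9 at 600 mg/kg/day (SZ-A 200, SZ-A 400 and SZ-A 600). The remaining 7 libraries were of mice fed a standard diet of 10% fat, 20% protein and 70% carbohydrate (SD). Strain, age, vehicle and weeks on the diet are not given in the labels used here. The labels number biosamples but name no animals, so p-values refer to the spread among libraries, which may be technical.

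Fat cells sit in a mesh of collagen, elastic fibres and adhesive glycoproteins that is made mostly by fibroblasts and preadipocytes and is remodelled as the cells enlarge. Elastic fibres form when tropoelastin, the product of Eln, is laid on microfibrils of fibrillin-1, the product of Fbn1. It is then cross-linked by lysyl oxidases such as Lox. Loxl2 encodes a related lysyl oxidase that cross-links collagen IV. Fibronectin, from Fn1, is the scaffold on which other matrix proteins assemble. Periostin, tenascin C, SPARC and thrombospondin 1, from Postn, Tnc, Sparc and Thbs1, are matricellular proteins, which tune adhesion and growth factor signals rather than bear load. Tgfb1 encodes TGF-beta 1, a cytokine that drives matrix synthesis, is stored bound to fibrillin microfibrils and can be activated by thrombospondin 1. In obese visceral fat this matrix is known to thicken into fibrosis.

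Libraries held between 32716294 and 44259619 counts each. Markers of adipocytes were abundant in every group: the 7 genes summed to a median of 8084 CPM (counts scaled to a common library total) in HFD and 18050 CPM in SD libraries. Genes of other tissues were abundant in 4 libraries, each with at least 185 genes far above the other libraries. SD library 4 and SZ-A 600 library 6 held ciliated epithelium genes at summed levels of 636 and 956 CPM. Squamous and sebaceous epithelium genes reached 10342 CPM in SZ-A 400 library 3, and epididymal and vas deferens genes reached 27329 CPM in SZ-A 400 library 6. That last library also held smooth muscle genes at a summed 21905 CPM, beside a median of 441.8 CPM in its group. The libraries also fell into sets of 22 and 21 that differed in how many counts fell on small noncoding RNAs, named set 1 and set 2, with libraries of every group in both. Results resting on these libraries or sets are given below with and without them.

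The promoters of 4 of the genes are shown because these genes were all called higher in HFD than in SD libraries in the comparison that follows. Each is the 250 bases before the transcription start in RefSeq, in the GRCm38.p6 build. They are printed on the coding strand, which reads in the direction of transcription. Windows of Fbn1, Postn, Tnc, Sparc and Tgfb1 were used, 5 of the 10 genes, and none for Fn1, Thbs1, Lox, Loxl2 or Eln. Postn had 2 windows, of which the downstream one is shown, and the Tnc windows are not shown. The windows were searched on both strands for 6 motifs, and capitals mark the matches. The core promoter motifs were the TATA box, spelled TATAAA, and the box named CCAAT for its letters. The GC box of Sp1 factors was spelled GGGCGG. For factors that answer to growth signals, the AP-1 motif was spelled TGANTCA. The Smad motif of TGF-beta signalling was CAGACA, and the motif of TEAD factors was written as GGAATG.
Fbn1 chr2:125506439-125506688: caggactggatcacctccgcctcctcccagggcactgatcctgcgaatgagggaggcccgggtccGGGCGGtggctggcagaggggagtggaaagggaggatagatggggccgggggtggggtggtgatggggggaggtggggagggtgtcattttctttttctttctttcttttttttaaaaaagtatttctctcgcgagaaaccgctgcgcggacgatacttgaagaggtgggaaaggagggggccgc
Postn chr3:54360857-54361106: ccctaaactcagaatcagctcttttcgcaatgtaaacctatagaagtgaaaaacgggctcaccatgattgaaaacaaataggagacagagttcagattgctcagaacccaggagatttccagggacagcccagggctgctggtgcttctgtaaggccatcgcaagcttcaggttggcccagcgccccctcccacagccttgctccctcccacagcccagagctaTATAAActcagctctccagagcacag
Sparc chr11:55420081-55420330: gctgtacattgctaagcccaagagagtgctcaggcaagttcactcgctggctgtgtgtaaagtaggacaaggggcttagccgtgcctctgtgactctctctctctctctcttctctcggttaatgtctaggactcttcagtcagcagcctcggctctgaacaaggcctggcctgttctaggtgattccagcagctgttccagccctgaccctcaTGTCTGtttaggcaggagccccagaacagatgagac
Tgfb1 chr7:25686752-25687001: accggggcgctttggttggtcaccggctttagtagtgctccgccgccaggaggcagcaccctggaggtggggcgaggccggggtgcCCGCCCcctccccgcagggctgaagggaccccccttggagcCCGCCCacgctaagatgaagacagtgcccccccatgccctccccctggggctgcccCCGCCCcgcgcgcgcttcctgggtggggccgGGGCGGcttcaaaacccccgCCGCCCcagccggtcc

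No motif was shared by all 4 windows. The Tgfb1 window held GGGCGG at 5 places, and the Fbn1 window held it at 1, between 185 and 180 bases before the start. The Postn window held TATAAA between 26 and 21 bases before the start. The Sparc window held CAGACA on the opposite strand, printed as TGTCTG, between 36 and 31 bases before the start. Over the 32851 windows of the same length on chromosomes other than 18, GGGCGG was present in 32.7%, TATAAA in 12.4% and CAGACA in 17.1%. CCAAT was present in 33.8% of these windows, TGANTCA in 6.75% and GGAATG in 12.6%. None of these 3 motifs had a match in the 4 windows shown. Letters that match a motif are a description of the window and do not show that a factor binds there.

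The levels of the 10 genes differed widely, and their order differed between the diets. Per length, Sparc had the highest median in each diet, at 1162 FPKM (fragments scaled to transcript length and library total) in HFD and 621 FPKM in SD libraries. In HFD libraries the medians of Fn1 and Thbs1 came next, at 95.5 and 82.1 FPKM. In SD libraries Thbs1 was second at 203 FPKM, and Lox, Fn1, Postn and Eln lay close together at 31.4, 21.6, 21.1 and 19.2 FPKM. Tnc had the lowest median in each diet, at 3.72 FPKM in HFD and 2.93 FPKM in SD libraries, and Loxl2 was next to it at 10.1 FPKM in HFD and 3.31 FPKM in SD. In HFD libraries the ranges of all neighbours in the order overlapped except Sparc with Fn1 and Eln with Loxl2. In SD libraries they overlapped except Sparc with Thbs1, Thbs1 with Lox and Eln with Tgfb1. Comparisons between groups below use CPM normalised with TMM factors, a scaling that evens out differences in library composition. Levels of cell type and tissue markers, single or summed, are CPM without these factors.

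**Figure D1:**
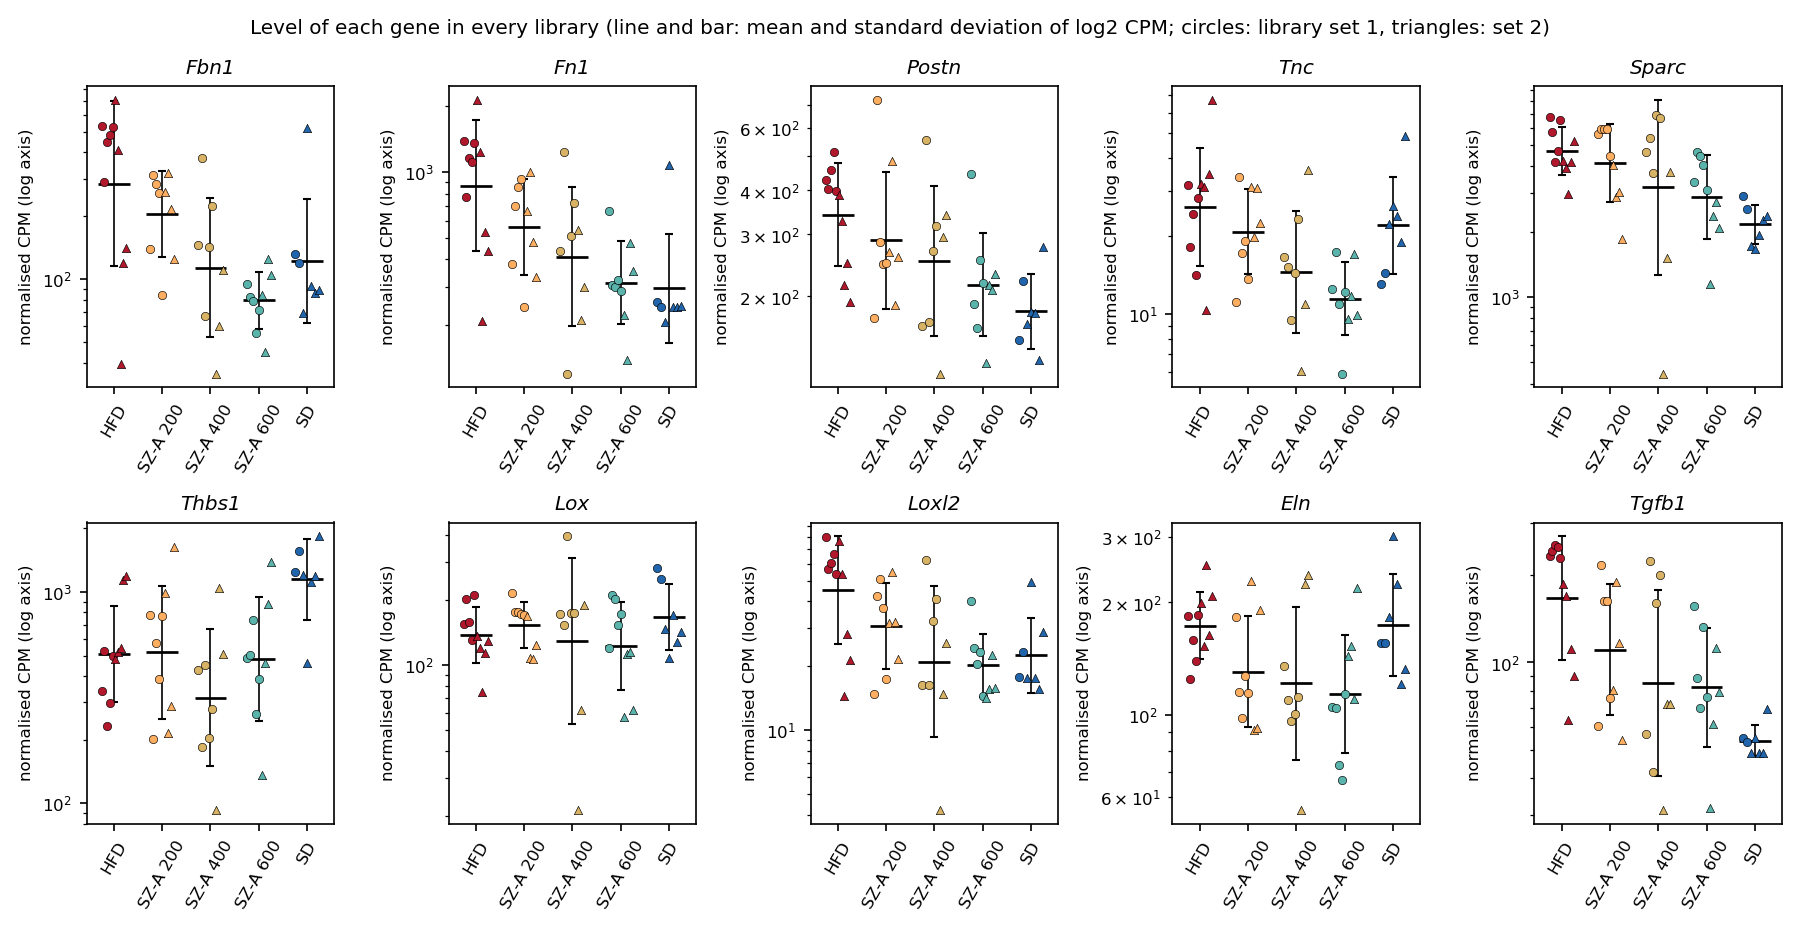
Normalised CPM (log axis) of each gene in every library by group, with the mean and standard deviation of log2 CPM as line and bar; circles are libraries of set 1 and triangles those of set 2. Sparc in the 10 HFD libraries lies above all 7 SD libraries, Thbs1 is highest in SD, and Fbn1 steps down over the SZ-A doses to a range of 45.0 to 125 CPM at SZ-A 600.

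The first comparison was of the diets without SZ-A. Of the 10 genes, 6 were higher in HFD than in SD libraries and 1 was lower. Tgfb1 and Fn1 differed most, at 3.36-fold and 2.89-fold higher, followed by Fbn1, Sparc, Loxl2 and Postn at 1.92-fold to 2.34-fold. Thbs1 was lower, at 0.47 times its SD level, and Tnc, Lox and Eln were not called. Calls are at a Benjamini-Hochberg adjusted p under 0.05 from edgeR's quasi-likelihood test of all genes. Of all tested genes, 31.7% were called in this comparison and 18.4% were called higher, against which the members' 7 and 6 of 10 are to be read. The median log2 fold change of the 10 genes was 1.01, and that of all tested genes was -0.05.

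The cytokine Tgfb1 (ENSMUSG00000002603, chromosome 7, 25386427 to 25404502 in the files' coordinates) had 63.3, 207 and 252 CPM as its lowest, median and highest values in the 10 HFD libraries. In the 7 SD libraries these values were 48.7, 53.5 and 69.1 CPM. All but 1 of the HFD libraries lay above the highest SD library, and HFD library 8 lay within the SD range. The log2 fold change was 1.75 (SE 0.36, adjusted p = 5.56e-04, edgeR). The SD libraries were close together, while the HFD libraries spread 3.99-fold from lowest to highest. Summed markers of macrophages, which are a known source of TGF-beta 1, moved alongside. All 10 of these markers were in the files and none was at 0 in any library. Their sum had a range of 615 to 6219 CPM with a median of 4457 CPM in HFD libraries, against 339 to 944 CPM with a median of 411 CPM in SD libraries. Cd163 among them had medians of 60.7 CPM in HFD and 61.5 CPM in SD, while the other markers had higher medians in HFD. The part of macrophage RNA in the Tgfb1 result was not tested, and in bulk tissue fewer cells of a type and less RNA per cell cannot be told apart.

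The scaffold genes Fn1 and Fbn1 showed the widest spread. Fn1 (ENSMUSG00000026193, chromosome 1, 71624679 to 71692359) had a lowest, median and highest value of 209, 1135 and 2147 CPM in HFD and of 207, 243 and 1076 CPM in SD libraries. The log2 fold change of Fn1 was 1.53 (SE 0.43, adjusted p = 0.00621, edgeR). Fbn1 (ENSMUSG00000027204, chromosome 2, 125142514 to 125349913) had 39.7, 428 and 712 CPM in HFD and 69.3, 92.9 and 521 CPM in SD libraries. For Fbn1 the log2 fold change was 1.22 (SE 0.45, adjusted p = 0.0354, edgeR). The groups overlapped for both genes. SD library 4, with ciliated epithelium genes, had the highest SD value of both. The other 6 SD libraries had at most 254 CPM of Fn1 and 132 CPM of Fbn1. SD library 4 also had the highest sum of fibroblast and preadipocyte markers of its group, 2824 CPM beside a median of 1328 CPM. Its adipocyte sum, 6125 CPM, was the lowest of its group. HFD library 8 had the lowest HFD value of both. It had the lowest macrophage sum, 615 CPM, and the highest adipocyte sum, 22415 CPM, of its group. Its fibroblast and preadipocyte sum, 1309 CPM, was the lowest of its group. The part of cell makeup in these values was not tested. HFD libraries 9 and 10 were also low, with 119 and 141 CPM of Fbn1. Without the 4 libraries holding other tissue genes, the log2 fold changes were 2.10 for Fn1 (adjusted p = 1.68e-04) and 1.90 for Fbn1 (adjusted p = 6.45e-04).

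Sparc, the most abundant of the matricellular genes (ENSMUSG00000018593, chromosome 11, 55285326 to 55314009), was the member that divided the diets most cleanly. Its lowest, median and highest values were 2969, 4451 and 6729 CPM in HFD libraries, against 1664, 2270.3 and 2931 CPM in SD libraries. All 10 HFD libraries lay above all 7 SD libraries, by a narrow gap. The log2 fold change was 1.14 (SE 0.33, adjusted p = 0.00773, edgeR). Postn (ENSMUSG00000027750, chromosome 3, 54268530 to 54298458), whose product periostin binds fibronectin and collagen, had 192, 393 and 514 CPM in HFD and 132, 179 and 277 CPM in SD libraries. All HFD libraries but 8, 9 and 10 exceeded every SD library. The Postn log2 fold change was 0.94 (SE 0.28, adjusted p = 0.0101, edgeR). 

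Loxl2 (ENSMUSG00000034205, chromosome 14, 69846517 to 69933283), a lysyl oxidase that cross-links collagen IV, had 14.4, 55.2 and 79.8 CPM in HFD and 15.6, 17.7 and 49.0 CPM in SD libraries. HFD libraries 1 to 7 lay above every SD library, while HFD library 8 lay below all of them. The log2 fold change was 1.08 (SE 0.37, adjusted p = 0.0229, edgeR). Thbs1 (ENSMUSG00000040152, chromosome 2, 117942357 to 117957614) went the other way, with 233, 508 and 1196 CPM in HFD and 460.0, 1205 and 1836 CPM in SD libraries. HFD libraries 9 and 10, at 1138 and 1196 CPM, reached the middle of the SD range, and SD library 4 had the lowest SD value. The log2 fold change was -1.09 (SE 0.43, adjusted p = 0.0458, edgeR). This call was the most fragile, since it was lost in 14 of 43 fits that each left out 1 library, where the adjusted p reached 0.0976. The Fbn1 call was lost in 11 of these fits, with an adjusted p of up to 0.0778, and the Loxl2 call in 1, at 0.0503 without SD library 6. The calls of Tgfb1, Fn1, Sparc and Postn were made in all 43.

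The other 3 members did not pass the test between the diets. Tnc had a median of 29.6 CPM in HFD and 22.3 CPM in SD libraries, with a log2 fold change of 0.29 (95% interval -0.33 to 0.90). Lox, whose product is the main cross-linking enzyme of elastin and fibrillar collagen, had medians of 134 CPM in HFD and 147 CPM in SD, with a log2 fold change of -0.29 (95% interval -0.90 to 0.32). Eln had medians of 174 CPM in HFD and 155 CPM in SD, with a log2 fold change of -0.04 (95% interval -0.52 to 0.44). Fbn1 and Eln, which encode the microfibril and the core of the elastic fibre, thus had different results in this comparison, and the difference between their fold changes was not itself tested.

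The diet comparison was also made within the 2 library sets. In set 1 alone, which holds 5 HFD and 2 SD libraries, 6 of the 10 genes were called, with log2 fold changes of 2.16 for Fn1, 2.09 for Tgfb1, 1.80 for Fbn1, 1.57 for Loxl2, 0.97 for Sparc and -1.94 for Thbs1. In set 2 alone, which holds 5 HFD and 5 SD libraries, SD library 4 among them, none was called at an adjusted p under 0.05. HFD libraries 8, 9 and 10, with macrophage sums of 615, 1677 and 692 CPM, were all in set 2. The 5 HFD libraries of set 1 had sums of 4565 to 6219 CPM. The sets thus also differed in the cell makeup of their HFD libraries, and the part of this in the results was not tested. The shares of all tested genes called were 36.4% in set 1 alone and 1.59% in set 2 alone. The fold changes there had the same signs, at 1.15 for Fn1, 1.17 for Tgfb1, 0.70 for Fbn1, 0.57 for Loxl2, 1.03 for Sparc and -0.59 for Thbs1. The test of the difference between sets called none of the 10 genes in edgeR, with 0 of 10 at an unadjusted p under 0.05. Of all tested genes 0% were called in that test, though 1829 had an unadjusted p under 0.05. With the set as a term in the model, 6 of the 7 diet calls held, Fbn1 had an adjusted p of 0.0558, and 35.3% of all tested genes were called. 

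**Figure D2:**
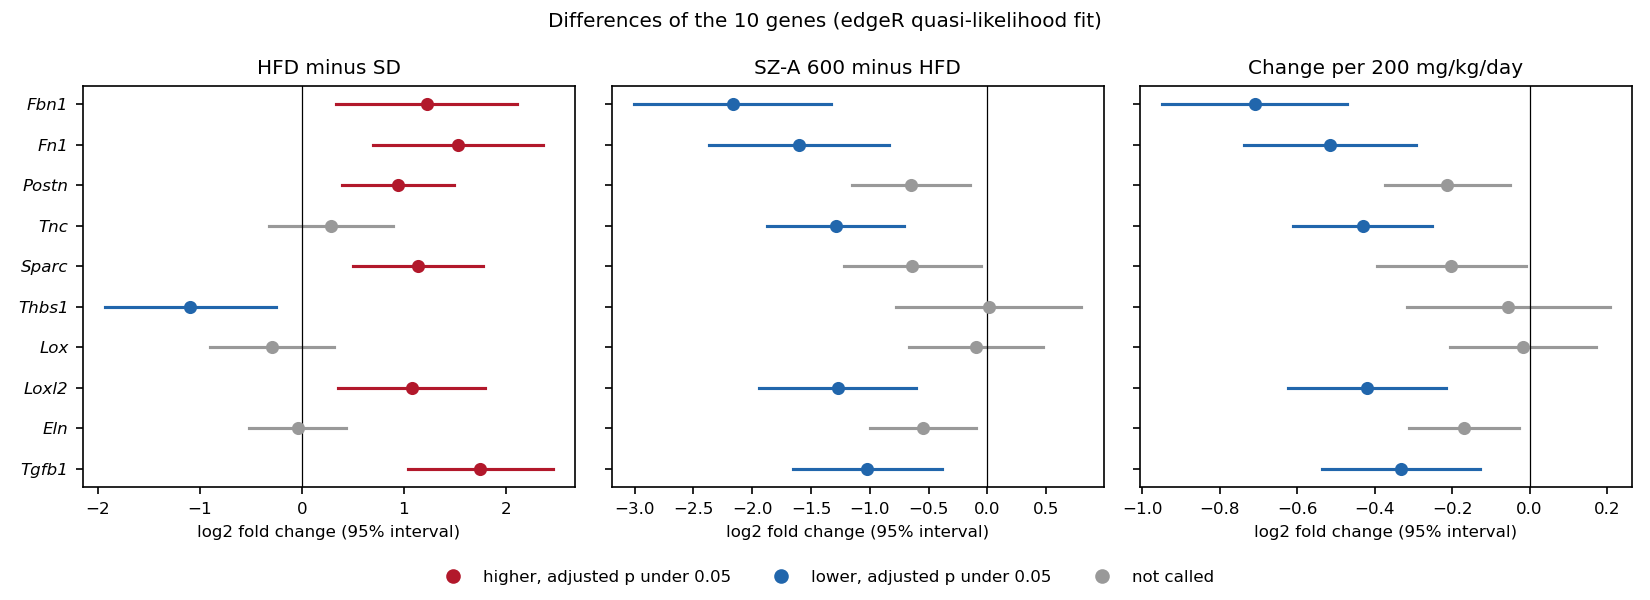
Log2 fold change with its 95% interval for each gene in HFD minus SD, SZ-A 600 minus HFD, and per 200 mg/kg/day of SZ-A over the high-fat groups; red is called higher, blue called lower, grey not called. Fbn1, Fn1, Loxl2 and Tgfb1 are red on the left and blue in the other 2 panels, while Tnc is blue only in the SZ-A panels.

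The next question was what SZ-A changed on the high-fat diet. At 600 mg/kg/day, 5 of the 10 genes were lower than in HFD libraries: Fbn1 at 0.22 times the HFD level, Fn1 at 0.33, Tnc and Loxl2 at 0.41 and Tgfb1 at 0.49. None was higher. Of all tested genes, 11.6% were called in this comparison and 6.47% were called lower. At 200 and 400 mg/kg/day no member was called. These comparisons share the HFD libraries with the diet comparison, so the opposite directions in the 2 comparisons are not independent of each other.

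Fbn1 had the steepest decline. Its median was 428 CPM in HFD, 257 CPM in SZ-A 200, 126 CPM in SZ-A 400 and 82.3 CPM in SZ-A 600 libraries, beside 92.9 CPM in SD. At 600 mg/kg/day the lowest and highest of 9 libraries were 45.0 and 125 CPM, against 39.7 and 712 CPM in the 10 HFD libraries. Only HFD libraries 8 and 9 fell within the SZ-A 600 range or below it. The log2 fold change of SZ-A 600 over HFD was -2.17 (SE 0.43, adjusted p = 0.00415, edgeR). Its spread narrowed as well, with a coefficient of variation of 29.4% in SZ-A 600 and 58.3% in HFD libraries, a difference that was not tested.

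Fn1 had medians of 1135, 666, 474 and 305 CPM in HFD, SZ-A 200, SZ-A 400 and SZ-A 600 libraries, and 243 CPM in SD. The 9 SZ-A 600 libraries ran between 139 and 662 CPM, overlapping HFD libraries 8, 9 and 10. Its log2 fold change at 600 mg/kg/day was -1.61 (SE 0.39, adjusted p = 0.011, edgeR). Tnc, a glycoprotein gene of wound repair and tissue remodelling (ENSMUSG00000028364, chromosome 4, 63878022 to 63965252), had medians of 29.6, 19.9, 14.8 and 11.8 CPM over the same groups, and 22.3 CPM in SD. The 9 SZ-A 600 libraries lay between 5.90 and 17.4 CPM, a range that only HFD libraries 4 and 8 shared. Its log2 fold change was -1.29 (SE 0.30, adjusted p = 0.00854, edgeR), while the diet comparison did not call it.

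Loxl2 had medians of 55.2, 32.0, 20.9 and 20.4 CPM over the doses, with 17.7 CPM in SD. Its log2 fold change at 600 mg/kg/day was -1.27 (SE 0.34, adjusted p = 0.0161, edgeR), and SZ-A 600 library 1, at 40.3 CPM, was the highest of its group. Tgfb1 had medians of 207, 117, 72.1 and 79.5 CPM, with 53.5 CPM in SD. Its log2 fold change was -1.02 (SE 0.32, adjusted p = 0.0356, edgeR). The Tgfb1 call was lost in 10 of the 43 fits without 1 library, where its adjusted p reached 0.0807, while the other 4 calls were made in all 43. The summed macrophage markers had medians of 4457, 2891, 878 and 1155 CPM over HFD and the 3 doses, so they had the same order of groups as Tgfb1, and the part of these cells in the results was not tested. Summed fibroblast and preadipocyte markers differed less, with medians of 2624, 1870.0, 1721 and 1692 CPM over the same groups and 1328 CPM in SD. Single markers of this list went in different directions. Lum had medians of 268, 103, 28.2 and 55.8 CPM over HFD and the 3 doses, and Ly6c1 had 133, 137, 177 and 185 CPM. Summed adipocyte markers had medians of 8084, 12180, 12510 and 16120 CPM over HFD and the 3 doses, beside 18050 CPM in SD. Over HFD and the doses the sum thus had the reverse order of Fbn1, Fn1, Tnc and Loxl2. Lep of this list went another way. Its medians were 1657, 1498, 1982 and 1008 CPM over HFD and the 3 doses and 432 CPM in SD. The other adipocyte markers had higher medians at each dose than in HFD. The part of adipocyte RNA in the results was not tested.

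The other 5 members were not called at 600 mg/kg/day. Postn had medians of 393 CPM in HFD and 215 CPM in SZ-A 600 libraries and a log2 fold change of -0.65 (adjusted p = 0.0862, edgeR). For Sparc the log2 difference was -0.64 (adjusted p = 0.144), and for Eln it was -0.55 (adjusted p = 0.104). Of the 9 SZ-A 600 libraries, 6 had less Eln than every HFD library, with a lowest value of 66.5 CPM, while SZ-A 600 libraries 6, 7 and 9 did not. Lox and Thbs1 had log2 fold changes of -0.10 (95% interval -0.67 to 0.47) and 0.01 (95% interval -0.78 to 0.80). Thbs1, lower in HFD than in SD, had medians of 508, 572, 353 and 487 CPM over HFD and the 3 doses.

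Within library set 1 alone, SZ-A 600 over HFD gave 6 calls, with log2 fold changes of -2.53 for Fbn1, -1.59 for Fn1, -1.33 for Loxl2, -1.17 for Tgfb1, -0.94 for Tnc and -0.74 for Eln. Within set 2 alone no member was called, at -1.66 for Fbn1, -1.61 for Fn1, -1.19 for Loxl2, -0.80 for Tgfb1 and -1.54 for Tnc. HFD libraries 8, 9 and 10, which had the lowest macrophage sums of their group, were all in set 2. Set 1 alone called 29.6% of all tested genes, set 2 alone 0.0183% and the fit with the set as a term 21.4%. With that term, the 5 calls held and Sparc (-0.75, adjusted p = 0.0189) and Eln (-0.56, adjusted p = 0.0456) joined them. Without the 4 libraries with other tissue genes the same 5 genes were called, Fbn1 at -2.19 and Tgfb1 at -0.93, where 11.4% of all tested genes were called.

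At 400 mg/kg/day, 0 of 10 genes were called by edgeR, where 2.87% of all tested genes were called. By unadjusted p under 0.05, 5 of the 10 were lower, DESeq2 called 1 and limma voom called 3. The shares of all tested genes by the same rules were 18.2%, 3.28% and 4.43%. Fbn1 had the largest difference, a log2 fold change of -1.35 (SE 0.43, adjusted p = 0.0785, edgeR). Its 8 values had a lowest of 35.5, a median of 126 and a highest of 378 CPM, and 6 of the 10 HFD libraries lay above the highest of them. SZ-A 400 library 6 held epididymal and smooth muscle genes. It had the lowest value of its group in 9 of the 10 members, all but Fn1. Its adipocyte sum, 1813 CPM, was the lowest of all libraries. Without the libraries holding other tissue genes, the Fbn1 difference was -1.08 (adjusted p = 0.419). In that fit no member was called, and the share of all tested genes called was 0.0549%. SZ-A 400 library 2 pulled the other way, with 378 CPM of Fbn1, 1237 CPM of Fn1 and a macrophage sum of 4716 CPM. Without it, Fbn1, Fn1 and Loxl2 were called, at -1.73 (adjusted p = 0.0156), -1.35 (adjusted p = 0.0394) and -1.25 (adjusted p = 0.0283). Without HFD library 8 or SD library 4 Fbn1 alone was called, and without SZ-A 400 library 8 Tnc alone was called.

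At 200 mg/kg/day, 0 of 10 genes were called by edgeR, none had an unadjusted p under 0.05, and DESeq2 and limma voom called none. Of all tested genes, 0.00989% were called, 6.91% had an unadjusted p under 0.05, and DESeq2 and limma voom called 0.0989% and 2.39%. The largest difference was that of Fbn1, at -0.74 (95% interval -1.54 to 0.06), followed by Fn1 at -0.73 (95% interval -1.48 to 0.01). The SZ-A 200 libraries were heterogeneous. Libraries 1, 5 and 9 had 60.3, 75.4 and 54.3 CPM of Tgfb1 with macrophage sums of 853, 766 and 784 CPM, while library 2 had 217 CPM of Tgfb1, a macrophage sum of 4146 CPM and the highest Postn value of the study, 724 CPM.

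A linear trend over the 36 high-fat libraries asked whether levels changed with dose. The same 5 genes as at 600 mg/kg/day were called, all lower, with log2 changes per 200 mg/kg/day of -0.71 for Fbn1 (SE 0.12, adjusted p = 6.35e-04), -0.52 for Fn1 (SE 0.11, adjusted p = 0.0042), -0.43 for Tnc (SE 0.09, adjusted p = 0.00328), -0.42 for Loxl2 (SE 0.10, adjusted p = 0.00884) and -0.33 for Tgfb1 (SE 0.10, adjusted p = 0.0313). Of all tested genes, 13.9% were called in the trend and 7.75% were called lower. The trend shares its libraries with the comparison at the highest dose. The Tgfb1 trend was lost in 9 of 36 fits without 1 library. Without the 4 libraries with other tissue genes Tgfb1 had -0.28 per 200 mg/kg/day (adjusted p = 0.0591) and the other 4 genes were called, with 9.63% of all tested genes. Within set 1 alone the slopes were -0.77 for Fbn1, -0.48 for Fn1, -0.40 for Loxl2, -0.35 for Tgfb1 and -0.31 for Tnc, and within set 2 alone -0.63, -0.56, -0.45, -0.31 and -0.51 for the same genes, with no call. In the trend 29.5% of all tested genes were called in set 1 alone and 0.0144% in set 2 alone.

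Neighbouring doses did not differ in any member beyond their spread. Between SZ-A 400 and SZ-A 200, 0 of 10 genes were called, and 1.04% of all tested genes. Between SZ-A 600 and SZ-A 400, 0 of 10 were called, and 0.519% of all tested genes. No member had an unadjusted p under 0.05 in either, and DESeq2 and limma voom called none. Without the 4 libraries with other tissue genes, no member and 0% of all tested genes were called in either of these 2 comparisons. Between SZ-A 600 and SZ-A 200, edgeR called 0 of 10 members and 0% of all tested genes, though 3 members and 12.1% of all tested genes had an unadjusted p under 0.05. DESeq2 called no member and 0.361% of all tested genes, and limma voom called 2 members and 6.28%. There Fbn1 had the largest difference, at -1.42 (95% interval -2.26 to -0.59).

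The dosed groups were also set against the standard diet. In SZ-A 200, 2 of the 10 genes were higher than in SD, where 15.4% of all tested genes were called: Tgfb1 at a log2 fold change of 1.20 (SE 0.36, adjusted p = 0.0223) and Sparc at 1.01 (SE 0.33, adjusted p = 0.0343, edgeR). In SZ-A 400 Thbs1 alone was called, lower at -1.62 (SE 0.46, adjusted p = 0.0201, edgeR), where 10.9% of all tested genes were called. Its 8 values had a lowest of 92.6, a median of 353 and a highest of 1048 CPM, and 6 of them lay below every SD library. In SZ-A 600, 0 of 10 genes were called by edgeR, where 3.36% of all tested genes were called, 5 members had an unadjusted p under 0.05, DESeq2 called 1 and limma voom called 5. Of all tested genes, 20.3% had an unadjusted p under 0.05, DESeq2 called 7.89% and limma voom called 46.1%, so the limma voom count of members was near the share of all genes. Tnc was nearest to a call, at -1.01 (SE 0.32, adjusted p = 0.063), and 7 of 9 SZ-A 600 libraries had less Tnc than every SD library. Fn1 and Loxl2 had log2 fold changes over SD of -0.07 (95% interval -0.89 to 0.74) and -0.20 (95% interval -0.91 to 0.52). Tgfb1 had 0.73 (95% interval 0.03 to 1.42) and Thbs1 had -1.08 (95% interval -1.94 to -0.22). Without the 4 libraries with other tissue genes, the numbers called against SD were 4 for SZ-A 200, 4 for SZ-A 400 and 1 for SZ-A 600, and the shares of all tested genes called were 19.7%, 14.9% and 10%.

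**Figure D3:**
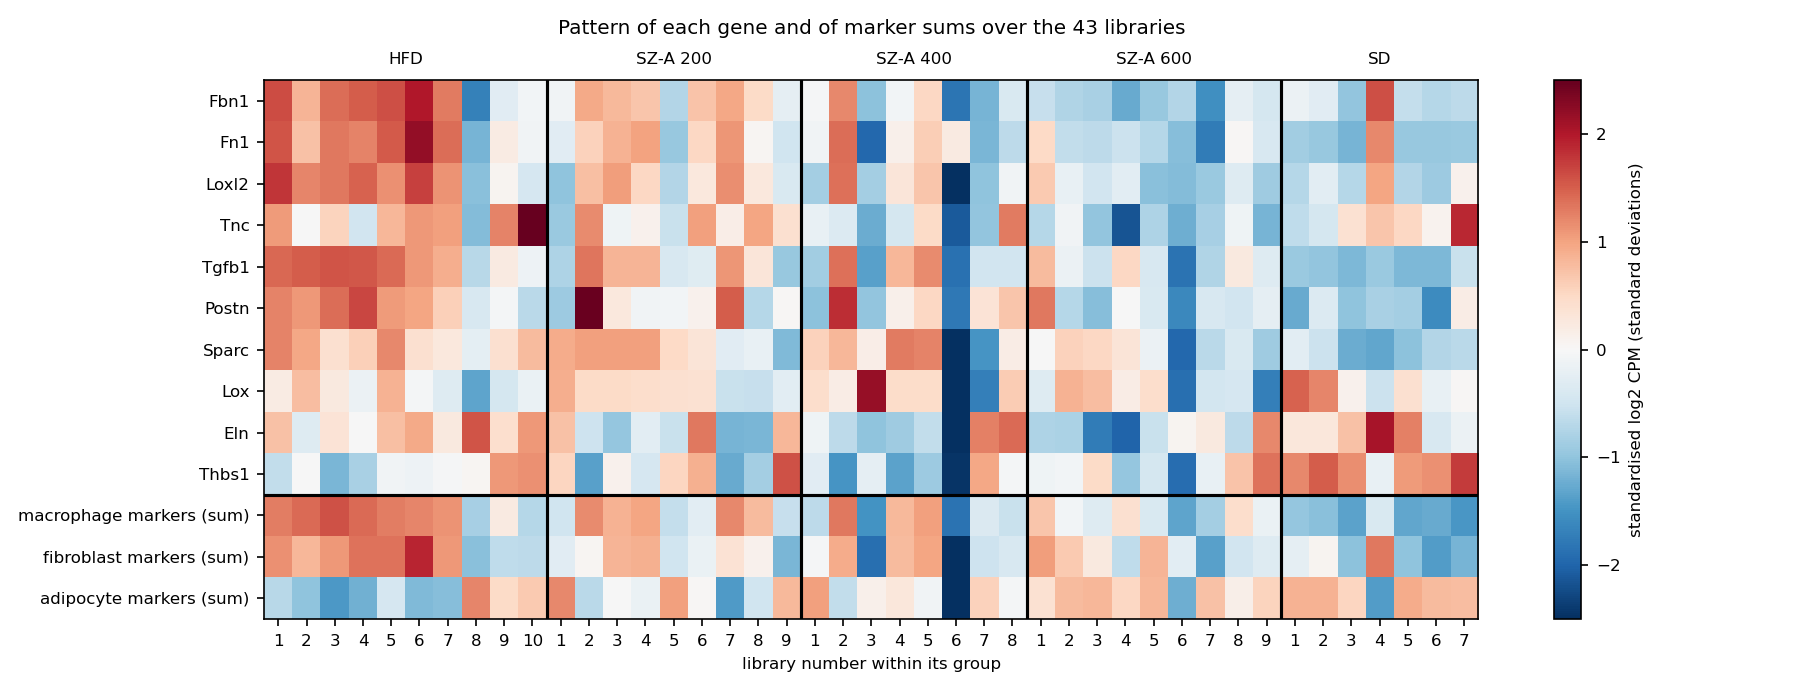
Standardised log2 CPM (colour, in standard deviations over the 43 libraries) of each gene and of 3 summed marker lists, with libraries as columns by group. HFD libraries 1 to 7 are high in Fbn1, Fn1, Loxl2, Tgfb1 and the macrophage sum, HFD libraries 8 to 10 are not, and Thbs1 and Eln have other patterns.

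Over the 43 libraries the members fell into unlike patterns. Likeness was measured as the root mean square difference of standardised log2 CPM, which is 0 for identical patterns and 1.41 for unrelated ones. Fbn1, Fn1 and Loxl2 were close, at 0.48 between Fbn1 and Fn1, 0.48 between Fbn1 and Loxl2 and 0.65 between Fn1 and Loxl2. Tgfb1 lay nearest to Loxl2 and Postn, at 0.53 and 0.54. Sparc lay nearest to Tgfb1, at 0.76, and Lox nearest to Sparc, at 0.77. Thbs1 was at least 1.01 from every other member, with Eln the nearest and Fn1 the farthest, at 1.67.

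Outside the 10 genes, the nearest patterns also differed between members. Fbn1 was most like the fibrillar collagen genes Col1a2 and Col3a1, at 0.392 and 0.445, and Loxl2 most like Col5a2 and Col3a1, at 0.331 and 0.364. Fn1 was most like Cd248 and Antxr1, stromal surface protein genes, at 0.349 and 0.369. Tgfb1 had the nearest neighbours of all members in Hcls1 and Lrrc25, genes of blood cells, at 0.168 and 0.185. Sparc was most like Hfe, an iron regulator gene, and Lep, the leptin gene of adipocytes, at 0.318 and 0.330. Lep had medians of 1657 CPM in HFD and 432 CPM in SD libraries without TMM scaling. Postn was most like St6galnac4 and Tfe3, at 0.488 and 0.532, Thbs1 like Enc1 and Ppfibp1, at 0.503 and 0.505, and Lox (ENSMUSG00000024529, chromosome 18, 52649139 to 52662939) like Klhl13 and Ust, at 0.504 and 0.569. Tnc and Eln (ENSMUSG00000029675, chromosome 5, 134731447 to 134776177) had the least near first neighbours of the members, at 0.611 to Igsf10 for Tnc and 0.688 to Npr1 for Eln. The points share depth, library set and cell makeup, so likeness is a description.

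Other genes of the same matrix were read from 5 lists, with 76 genes in all and 75 tested. Their counts in HFD over SD are to be read against 31.7% of all tested genes called, 18.4% higher and 13.3% lower. In HFD over SD, 7 of 20 elastic fibre and microfibril genes were higher and none was lower, with a median log2 fold change of 0.40 beside -0.05 for all tested genes. These were led by Fbln2 and Fbln1, fibulin genes of microfibril-associated proteins, at 1.46 (SE 0.33, adjusted p = 0.00116) and 1.62 (SE 0.42, adjusted p = 0.0037), and Efemp2, the fibulin-4 gene that brings lysyl oxidase to elastin, at 0.96 (SE 0.22, adjusted p = 0.00133). Of 9 cross-linking genes, 6 were higher and none lower, with a median of 0.65: Loxl1, which cross-links elastin, was highest at 1.75 (SE 0.38, adjusted p = 8.04e-04), followed by Loxl3 at 1.09 and the lysyl hydroxylase gene Plod1 at 0.84. Loxl1 averaged 143 ± 63.4 CPM in HFD (standard deviation, n = 10) and 42.6 ± 27.4 CPM in SD libraries (standard deviation, n = 7).

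Of 20 other matricellular and adhesion genes, 7 were higher in HFD and none lower, with a median log2 fold change of 0.57. The 3 with the smallest p were Fbln7 at 4.09 (SE 0.81, adjusted p = 4.03e-04), Ccn5 at 2.66 (SE 0.62, adjusted p = 0.00149) and the TGF-beta induced adhesion gene Tgfbi at 1.23 (SE 0.30, adjusted p = 0.00221). The 15 TGF-beta pathway genes were divided, with 4 higher, 3 lower and a median of -0.14. The higher ones included Nrros, a holder of latent TGF-beta on myeloid cells, at 1.79 (adjusted p = 0.00122), the receptor gene Tgfbr1 at 0.97 (adjusted p = 0.00898) and the repressor gene Tgif1 at 1.15 (adjusted p = 0.0242). The lower ones were Skil, a repressor of Smad proteins, at -0.74 (adjusted p = 0.00452), the co-receptor gene Tgfbr3 at -0.64 (adjusted p = 0.00732) and Lrrc32, another holder of latent TGF-beta, at -0.76 (adjusted p = 0.0267). Of 11 matrix receptor genes tested, 3 were higher and 1 lower, a count near the 31.7% of all tested genes called in either direction. Itga5, a subunit of the fibronectin receptor, had 1.35 (SE 0.26, adjusted p = 3.55e-04), Itgb5 had 0.91, Itgb3 had 1.04 and Itga8 had -1.53 (SE 0.55, adjusted p = 0.0296).

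**Figure D4:**
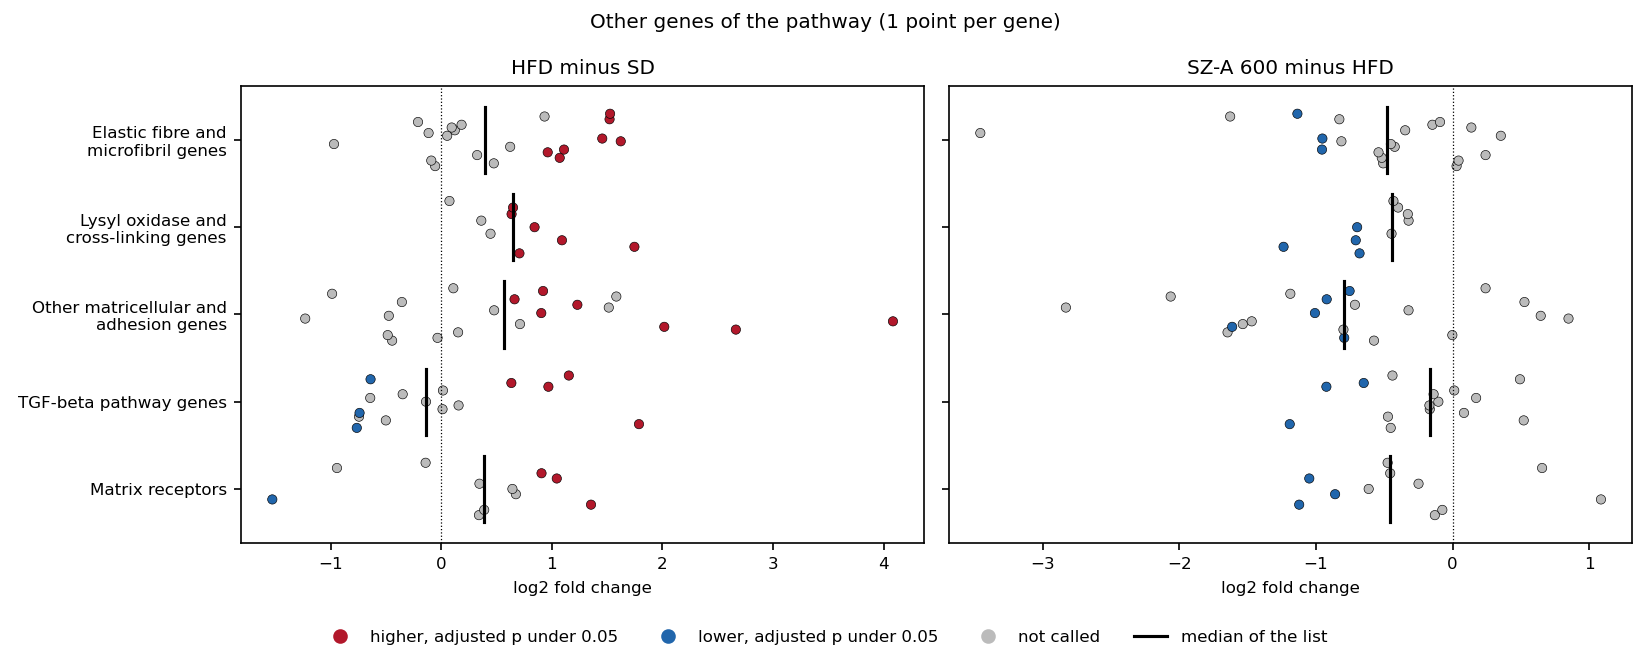
Log2 fold change of each gene of the 5 lists in HFD minus SD and SZ-A 600 minus HFD, with the list median as a black line; red is called higher, blue called lower, grey not called. No listed gene is called higher at SZ-A 600, and the TGF-beta pathway list has calls in each direction in HFD.

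At SZ-A 600 over HFD, 18 of the 75 genes were called and all 18 were lower. In this comparison 11.6% of all tested genes were called and 6.47% were called lower. The counts were 3 of 20 elastic fibre genes, 4 of 9 cross-linking genes, 5 of 20 other matricellular genes, 3 of 15 TGF-beta pathway genes and 3 of 11 receptors. The list medians were -0.48, -0.45, -0.80, -0.17 and -0.46, beside 0.06 for all tested genes. Among the elastic fibre genes Emilin1, Fbln2 and Mfap5 fell, by 0.96, 0.95 and 1.14 on the log2 scale (adjusted p = 0.019, 0.0331 and 0.0488, edgeR). Among the listed cross-linking genes, Loxl1 had -1.24 (SE 0.34, adjusted p = 0.0183), Bmp1, the protease that activates lysyl oxidase, had -0.68 (adjusted p = 0.0161) and Plod1 had -0.70 (adjusted p = 0.0198). Thbs3, Ccn2 and Comp were the matricellular genes with the smallest p, at -0.92, -0.79 and -1.61. The receptor genes Tgfbr1 and Tgfbr2 had -0.92 and -0.65, Nrros had -1.19, and the integrin genes Itga5, Itga9 and Itgb3 had -1.12, -0.86 and -1.05. 

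At SZ-A 400 over HFD, Thbs3 and Ccn2 (Ccn2 is the connective tissue growth factor gene) were the 2 listed genes called, at -0.88 (adjusted p = 0.0307) and -0.87 (adjusted p = 0.0473, edgeR). Both were lower, and these 2 of the 75 listed genes are to be read against 0.406% of all tested genes called lower there. In either direction 2.87% of all tested genes were called. Ccn2 averaged 19.6 ± 6.15 CPM in SZ-A 600 (standard deviation, n = 9), 33.9 ± 10.2 CPM in HFD (standard deviation, n = 10) and 34.7 ± 18.6 CPM in SD libraries (standard deviation, n = 7), so like Tnc it was called with SZ-A and not with diet, a difference between comparisons that was not tested. At SZ-A 200 over HFD no listed gene was called by edgeR, and 9 were lower and 1 was higher at an unadjusted p under 0.05. The shares of all tested genes by these 2 rules were 0.00989% and 6.91%.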

How the data were processed

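RNA-seq of epididymal white fat was analysed in 43 libraries, grouped by the labels' diet and SZ-A dose. Per the labels, poly(A) RNA was read as strand-specific pairs. Per the file headers, the authors deposited for each gene a read count and an FPKM value. The counts were used as deposited, with totals of 32716294 to 44259619 per library, and FPKM values were used for levels between genes and for alternatives. No aligner or counting program is named in the sources used here. The submitters' processing notes name the mm10 build, but the coordinates in the files did not match it, so they are printed as the files give them.

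Genes were filtered with filterByExpr, which left 20218 genes, and tested with edgeR 4.0.16 (TMM, robust quasi-likelihood, all libraries in 1 fit) in R 4.3.3. Adjusted p-values are Benjamini-Hochberg over all tested genes of a comparison, called under 0.05. The dose trend used the 36 high-fat libraries. Normalised CPM are counts relative to library totals scaled with TMM factors, and log2 CPM used a prior count of 2. Fits were tested on simulated counts with known changes. Alternatives used DESeq2 1.42.0 and limma 3.58.1, with limma also run on log2(FPKM + 1) and log2(FPKM + 0.1) of the deposited FPKM. The library sets lie on either side of the widest gap in the log fraction of counts that small noncoding RNAs took. A library was taken to hold other tissue genes when at least 100 genes had at least 10 CPM and more than 20 times their median level across libraries.

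The members, lists, library sets and tests were chosen with earlier results of these data known. All 10 members were named, and from each list the up to 3 called genes with the smallest p in each direction, for HFD over SD and each dose over HFD. For each member the 2 genes of most similar pattern were named, among tested genes with a mean log2 CPM of at least 1.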

Additional observations from a re-analysis of the deposited data

Results flagged for a closer look

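In 4 places, 1 SD library stood apart from the other 6 by more than a gap test at the 95% level allows. SD library 4 had the highest Fbn1 of its group, 520.5 CPM, the highest Fn1, 1076 CPM, and the lowest Thbs1, 460 CPM. It held ciliated epithelium genes at a summed 636 CPM and had the highest fibroblast and preadipocyte sum of its group, 2824 CPM. SD library 7 had the highest Tgfb1 at 69.1 CPM. In all 50 combinations of gene and group were examined, and chance marks about 1 in 20 of them.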

How the results depend on the processing

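Numbers of members called are given with the value of the main analysis first. Percentages in brackets are the shares of all tested genes called under the same setting. For HFD over SD, 7 became 5 without a filter (16.7%), with Fbn1 and Thbs1 lost. It became 6 with upper-quartile factors (32%) or with only the compared groups (36.3%), each with Fbn1 lost. Then it was 0 in library set 2 alone (1.59%), 3 at an adjusted p under 0.01 (17.1%), and 4 to 7 with 1 library left out. For SZ-A 400 over HFD, 0 became 1 with DESeq2 (3.28%), 3 with limma voom (4.43%) and 1 with the set as a term (6.3%). It was 0 to 3 with 1 library left out. For SZ-A 600 over HFD, 5 became 8 with limma voom (44.2%), 0 in set 2 alone (0.0183%) and 2 at an adjusted p under 0.01 (1.47%). It was 4 to 6 with 1 library left out. For the dose trend, 5 became 8 with limma voom (46.3%), 8 with the set as a term (24.6%) and 0 in set 2 alone (0.0144%). It was 4 to 6 with 1 library left out. For SZ-A 600 over SZ-A 200, 0 became 2 with limma voom (6.28%). For SZ-A 200 over SD, 2 became 1 with upper-quartile factors (14.3%), without a filter (6.48%), with the set as a term (15.1%) and in set 1 alone (6.99%). It became 0 on both FPKM scales (11.8% and 12.2%), in set 2 alone (0%) and at an adjusted p under 0.01 (3.91%). It became 8 with limma voom (59.4%), 4 with the replicate block (35%) and 4 without libraries holding other tissue genes (19.7%). Without those libraries and with the set as a term it was 5 (24.9%), and with 1 library left out 0 to 4. For SZ-A 400 over SD, 1 became 2 with DESeq2 (14.1%), 8 with limma voom (57.2%) and 0 with only the compared groups (0.747%). It became 2 in set 1 alone (7.11%), 0 in set 2 alone (0.00916%) and 0 at an adjusted p under 0.01 (2.15%). It was 4 without other tissue genes (14.9%), 3 with that and the set as a term (14.8%), and 0 to 3 with 1 library left out. For SZ-A 600 over SD, 0 became 1 with upper-quartile factors (3.92%), the stricter filter (5.47%), DESeq2 (7.89%) and only the compared groups (11.2%). It was also 1 without other tissue genes, with the set term (12.3%) or without it (10%). It became 5 with limma voom (46.1%), 3 with the replicate block (20.6%), and 0 to 1 with 1 library left out. The sign of a called value turned once, for Fbn1 in SZ-A 400 over SD with limma voom, at 0.87 on the log2 scale (adjusted p = 0.0121) beside -0.13 in the main analysis. The causes were not tested.

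As limits, library set 1 holds 2 SD libraries and set 2 holds 5, and groups differ in cell makeup. The sets differ in it too, since HFD libraries 8, 9 and 10, with the lowest macrophage sums of their group, were all in set 2. The labels give groups the same replicate numbers, but these were not taken to pair the libraries, since not every pair of deviations from group means correlated over 0.1: the correlations were -0.36 to 0.54 with a median of 0.20 for same-numbered libraries, and had a median of -0.04 for differently numbered ones. With the replicate block the 7 diet calls were unchanged in number while SZ-A 600 over HFD had 6 and the trend 7. The share of all tested genes called was larger with the block, at 50.3% against 31.7% in HFD over SD. It was 18.5% against 11.6% in SZ-A 600 over HFD, and 23.2% against 13.9% in the trend. Of the members, Tnc and Loxl2 rest on the fewest counts.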
